A study of Rattus norvegicus with 4 samples.

Results

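The 10 genes described here encode the transforming growth factor beta (TGF-beta) ligands (Tgfb1, Tgfb2 and Tgfb3), their receptors (Tgfbr1, Tgfbr2 and Tgfbr3) and Smads of the pathway (Smad2, Smad3, Smad4 and Smad7). They were taken by symbol from the RefSeq gene table through the RefSeq accession of each row of the deposited values, and all 10 had 1 row with a value on all 4 arrays, of 18350 such rows and 6963 named genes. Expression was measured in colon tissue of male Sprague Dawley rats on one-color NimbleGen arrays, 2 of the control group and 2 of the mesenchymal stem cell transplantation (MSCT) group. Each array was taken to be 1 rat. The MSCT rats had colitis from 2,4,6-trinitrobenzene sulfonic acid (TNBS), a hapten given into the colon in ethanol, and then received cultured mesenchymal stem cells (MSCs), which carried green fluorescent protein through a virus, by the tail vein. The control rats received no MSCs. The sample descriptions call them normal, whereas the study's text calls them rats with inflammatory bowel disease (IBD), so colitis and transplantation cannot be told apart in a difference between the groups. The age of the rats is not given, the day of the chips differs within the study's text, and the tissue was a piece of lesion region, so its RNA mixed the layers of the colon wall, infiltrating cells and any donor cells.

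TGF-beta is secreted in a latent form that is held in the matrix and must be activated before it can bind. The active ligand brings the type II receptor, Tgfbr2, together with the type I receptor, Tgfbr1, and the type III receptor, Tgfbr3 (betaglycan), presents the ligand. Tgfbr1 then phosphorylates Smad2 and Smad3, which enter the nucleus with the shared partner Smad4, while Smad7 binds the receptor and blocks the signal and is itself induced by it. In the gut, TGF-beta is known for restraining immune cells and for driving repair and fibrosis, and a high level of Smad7 is known from human IBD.

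The authors deposited linear intensities, which were taken to log2 as they stood, and the groups were compared over all 18350 rows with limma, which fits each row and steadies its variance with that of the other rows. The array medians lay between 848 and 893. Pearson's r between arrays across rows, which are not independent replicates, was 0.953 for the control pair, 0.964 for the MSCT pair and 0.959 for control replicate 2 with MSCT replicate 2. Precision is limited by having so few arrays, because an exact two-sided permutation of 2 arrays against 2 cannot give a p under 0.333. Of the members, 0 lay in the dimmest 25% of rows, where the arrays of a group lay farthest apart (median SD 0.47 on the log2 scale). The labelled tissue was checked by its markers. The epithelial keratin Krt8 had log2 intensities from 14.50 to 14.74 and the gut transcription factor Cdx2 from 10.18 to 11.13, while the goblet cell mucin Muc2 had no row by name.

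The promoter windows of the 3 genes with the largest differences between the group means are shown, because the results turn on them. They are from RefSeq's annotation of the rat assembly GRCr8 and run from 250 bases before to 50 bases after the annotated start, 5′ to 3′ on the strand of the gene, with GGGCGG on either strand (the letters of a GC box) in capitals. The window of Tgfb1 is chr1:90324062-90324361 on the plus strand, that of Smad3 chr8:73132275-73132574 on the minus strand and that of Tgfbr1 chr5:66449148-66449447 on the plus strand.
Tgfb1: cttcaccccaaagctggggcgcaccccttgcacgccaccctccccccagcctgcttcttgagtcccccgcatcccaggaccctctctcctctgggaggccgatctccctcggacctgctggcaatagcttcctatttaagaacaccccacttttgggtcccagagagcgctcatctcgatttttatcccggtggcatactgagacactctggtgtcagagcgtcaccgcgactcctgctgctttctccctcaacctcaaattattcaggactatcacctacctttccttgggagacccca
Smad3: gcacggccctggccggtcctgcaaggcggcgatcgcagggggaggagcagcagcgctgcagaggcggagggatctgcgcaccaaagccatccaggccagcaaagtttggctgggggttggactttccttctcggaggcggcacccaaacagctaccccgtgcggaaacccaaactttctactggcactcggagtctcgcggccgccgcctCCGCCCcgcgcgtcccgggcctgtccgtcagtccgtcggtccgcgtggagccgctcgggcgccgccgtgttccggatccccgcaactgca
Tgfbr1: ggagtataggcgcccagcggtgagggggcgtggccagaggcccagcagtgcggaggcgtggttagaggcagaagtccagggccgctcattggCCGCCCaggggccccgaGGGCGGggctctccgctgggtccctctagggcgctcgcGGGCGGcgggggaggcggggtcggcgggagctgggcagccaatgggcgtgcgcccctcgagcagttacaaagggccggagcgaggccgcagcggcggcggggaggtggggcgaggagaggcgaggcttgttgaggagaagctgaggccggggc
All 10 genes had a window, Smad2 more than 1. GGGCGG was found in the windows of 6 genes (Tgfbr1, Tgfbr2, Tgfbr3, Smad2, Smad3 and Smad7) and in 33.1% of all 33469 windows, and no ligand window held it. The Smad-binding motif CAGAC, which like the others was searched on both strands, was in 0 of the 10 genes' windows and in 50.1% of all. The palindrome GTCTAGAC (0.197% of all windows) and the AP-1 site TGANTCA (7.33%) were in none of the 10 either. These are matches of letters in a short window and describe no binding.

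Tgfb1 was the member with the largest difference, at 2.28 times the control level in the MSCT group. Smad3, which carries much of the TGF-beta signal to target genes, was lower by 0.71 on the log2 scale. Smad7, the inhibitor, and Tgfbr1, the signaling receptor, were also lower on both MSCT arrays than on both control arrays, without passing the test, and Tgfb3, Smad2, Smad4, Tgfbr2 and Tgfbr3 overlapped between the groups. In total, 2 of the 10 members had an unadjusted limma p under 0.05 (Tgfb1 higher, Smad3 lower), against 12.0% of all rows (4.80% higher and 7.17% lower). The limits that the study set for its chips were a p under 0.05 together with more than a 2-fold change, and it names no test for that p. Applied here with limma's unadjusted p, this screen let 1 member through, Tgfb1, against 4.63% of all rows (2.12% higher and 2.51% lower). It is therefore not the study's own call of its chips. None of the 10 members and none of the 18350 rows (0.00%) passed an adjusted p of 0.05 by limma, and the members' adjusted p ran from 0.289 to 0.981. Over all rows, unadjusted p-values under 0.05 numbered 2196 in limma and 1772 in the methods' t-test, which also left 0 rows after adjustment. In 5 of the 10 members the groups did not overlap, 2 with the MSCT arrays higher and 3 with them lower, against 45.8% of all rows (21.3% higher and 24.5% lower). The median difference of the members was -0.04 on the log2 scale and that of all rows -0.02, and 5 of 10 members were higher, against 48.0% of all rows. With single arrays left out, the members' median lay between -0.27 (without MSCT replicate 2) and 0.17 (without control replicate 1), and it was 0.01 after quantile normalization, so the list as a whole had no settled direction. In tissue RNA, fewer cells of a type and less RNA per cell cannot be told apart, which applies to every member below.

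**Figure D1:**
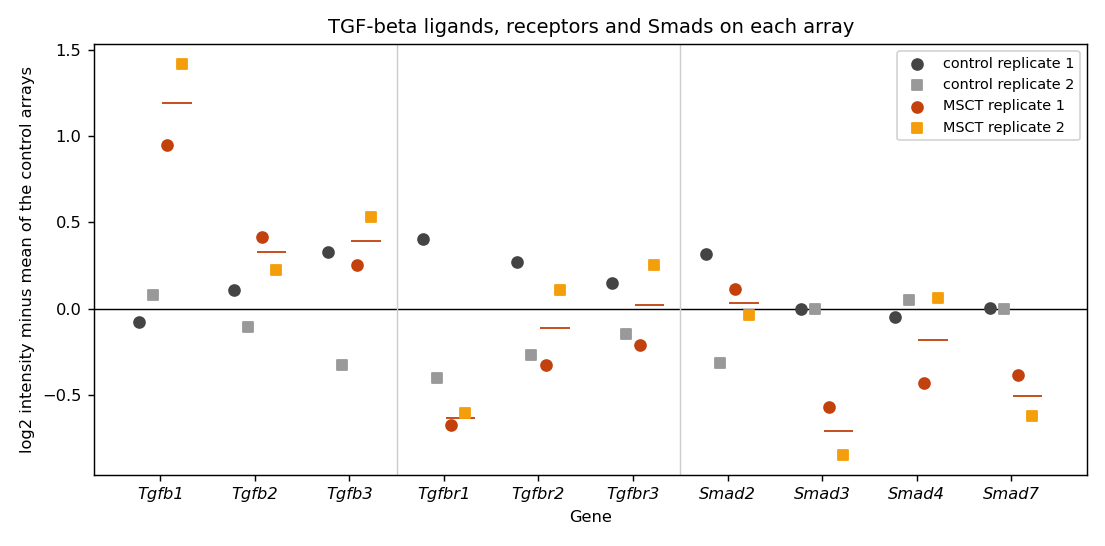
The log2 intensity of each gene on each of the 4 arrays, minus the mean of the 2 control arrays of that gene (horizontal line at 0); circles are replicate 1, squares replicate 2, and the short orange line is the MSCT mean. Tgfb1 lies above and Smad3, Smad7 and Tgfbr1 below the controls on both MSCT arrays, and the control arrays of Tgfb3, Tgfbr1, Tgfbr2 and Smad2 lie far apart.

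Among the ligands, Tgfb1 (NM_021578), the main TGF-beta of immune cells and of wound repair, had intensities of 560 and 627 on the control arrays against 1143 and 1590 on the MSCT arrays. Both MSCT arrays lay above both control arrays, and the gap between the groups was wider than the spread within either. The log2 means were 9.21 ± 0.11 and 10.40 ± 0.34 (SD, n = 2 each) and differed by 1.19 (standard error 0.25, 95% interval of limma 0.53 to 1.84, unadjusted p = 0.00653, adjusted p = 0.289 over all rows). With single arrays left out the difference ran from 0.95 without MSCT replicate 2 to 1.42 without MSCT replicate 1. The unadjusted limma p was under 0.05 each time, but such a fit sets a lone array against a pair, takes the spread from that pair and from limma's prior, and assumes that the lone array varies likewise. At 0.95, without MSCT replicate 2, it was under the 2-fold limit of the screen. Tgfb2 (NM_031131), the ligand that binds best in the presence of betaglycan, had intensities of 459 and 396 on the control arrays against 568 and 498 on the MSCT arrays. The groups of Tgfb2 did not overlap, but the 95% interval of its difference of 0.32 (standard error 0.20) by limma, -0.23 to 0.86, included 0. Tgfb3 (NM_013174), a ligand of development and wound repair, had intensities of 1098 and 693 on the control arrays against 1038 and 1263 on the MSCT arrays. Control replicate 1 was higher than MSCT replicate 1, so the groups overlapped, and the difference of 0.39 (standard error 0.30, limma interval -0.41 to 1.20) was 0.06 without control replicate 2.

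The receptors gave no call. Tgfbr1 (NM_012775), the type I kinase, had intensities of 3450 and 1967 on the control arrays against 1633 and 1708 on the MSCT arrays. The MSCT arrays lay close together below both control arrays, while the control arrays differed from each other by more than control replicate 2 differed from the MSCT arrays. Its log2 difference was -0.64 (standard error 0.33, limma interval -1.51 to 0.23, unadjusted p = 0.114), and it shrank to -0.24 when control replicate 1 was left out and reached -1.05 when control replicate 2 was. Control replicate 1 therefore set most of the distance of Tgfbr1. Tgfbr2 (NM_031132), the type II kinase that binds the ligand first, had intensities of 969 and 664 on the control arrays against 638 and 867 on the MSCT arrays. Each group of Tgfbr2 held 1 high and 1 low array, and the log2 difference was -0.11 (standard error 0.30, limma interval -0.90 to 0.68). Tgfbr3 (NM_017256), the coreceptor betaglycan, had intensities of 529 and 431 on the control arrays against 414 and 568 on the MSCT arrays. Its order among the arrays was that of Tgfbr2 in each group, high in control replicate 1 and MSCT replicate 2, and its log2 difference was 0.02 (standard error 0.26, limma interval -0.66 to 0.71). The intervals of Tgfbr2 and Tgfbr3 leave room for differences of more than 1.5-fold in either direction, so a p that misses the threshold does not show equal levels.

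Of the Smads, Smad3 (NM_013095) had intensities of 2603 and 2612 on the control arrays against 1756 and 1453 on the MSCT arrays. The control arrays were almost equal and both MSCT arrays were clearly below them. The log2 means were 11.35 ± 0.00 and 10.64 ± 0.19 (SD, n = 2 each) and differed by -0.71 (standard error 0.20, 95% interval of limma -1.25 to -0.17, unadjusted p = 0.021, adjusted p = 0.34 over all rows), 1.63-fold lower. In fits of this kind the call was lost without control replicate 1 (-0.71), without control replicate 2 (-0.70) and without MSCT replicate 2 (-0.57), although the difference stayed negative. Smad7 (NM_030858) showed the same arrangement of its arrays as Smad3, with intensities of 5145 and 5097 on the control arrays against 3927 and 3327 on the MSCT arrays. Its log2 difference was -0.50 (standard error 0.20, limma interval -1.03 to 0.02, unadjusted p = 0.0574, adjusted p = 0.432), 1.42-fold lower. This was near the threshold. Smad7 had an unadjusted p under 0.05 by limma after quantile normalization (-0.53), with an intensity-dependent, robust variance and without the dimmest 25% or 50% of rows. It missed 0.05 by limma with equal array medians (unadjusted p = 0.0822), a replicate block (0.0685) and array weights (0.0618), and by the methods' t-test (0.0524). With single arrays left out its difference ran from -0.62 to -0.38.

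The other Smads overlapped between the groups. Smad2 (NM_019191), the receptor-regulated partner of Smad3, had intensities of 1443 and 937 on the control arrays against 1259 and 1137 on the MSCT arrays. Both MSCT arrays lay between the control arrays, with a log2 difference of 0.04 (standard error 0.28, limma interval -0.71 to 0.79). Smad4 (NM_019275), the common partner, had intensities of 2299 and 2477 on the control arrays against 1775 and 2482 on the MSCT arrays. MSCT replicate 1 was the low array of Smad4 and MSCT replicate 2 was level with the controls, so the difference of -0.19 (standard error 0.25, limma interval -0.84 to 0.47) became 0.06 without MSCT replicate 1.

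**Figure D2:**
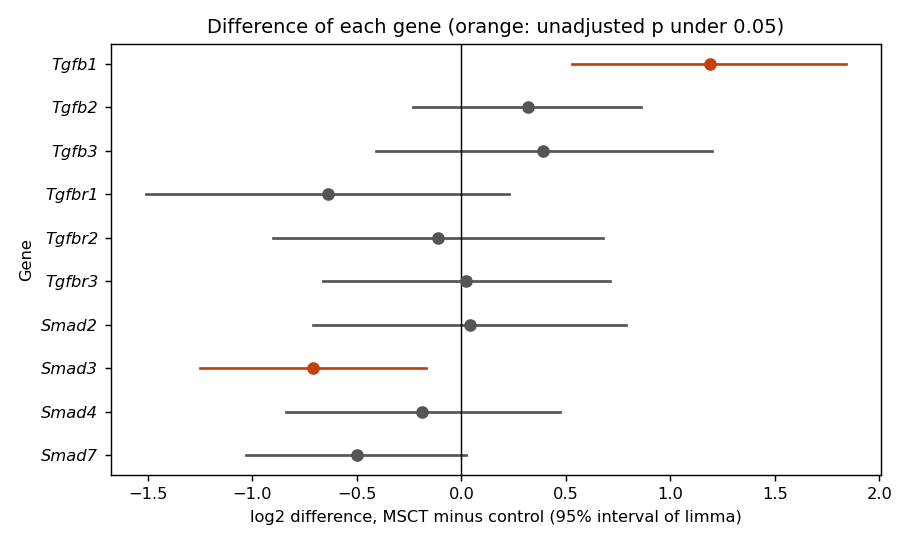
The log2 difference between the MSCT and control means of each gene (points) with the 95% interval of limma (lines); orange marks an unadjusted p under 0.05. The intervals of Tgfb1 (0.53 to 1.84) and Smad3 (-1.25 to -0.17) exclude 0, and that of Smad7 reaches 0.02.

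Whether ligands, receptors or Smads differed among themselves was asked within arrays, by the change of the log2 ratio of a pair of genes from the control to the MSCT group, over 9 pairs. The difference of Tgfb1 was 0.87 above that of Tgfb2 (standard error 0.38) and 0.79 above that of Tgfb3 (standard error 0.42), and in both ratios the MSCT arrays lay above the control arrays. The ratio of Smad3 to Smad2 differed by -0.75 (standard error 0.32) and that of Smad3 to Smad4 by -0.52 (standard error 0.38), again without overlap. The ratio of Smad7 to Smad3 differed by 0.20 (standard error 0.02), the smallest value among the pairs without overlap. The ratios of Tgfbr1 to Tgfbr2 and to Tgfbr3 differed by -0.53 and -0.66 (standard errors 0.23 and 0.32), while the ratios of Tgfb2 to Tgfb3 and of Tgfbr2 to Tgfbr3 overlapped. The exact permutation p was 0.333 in each of the 7 pairs without overlap, the smallest this design can give, and 0.429 after adjustment over the 9 pairs, so none of these differences between genes was shown by a test.

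**Figure D3:**
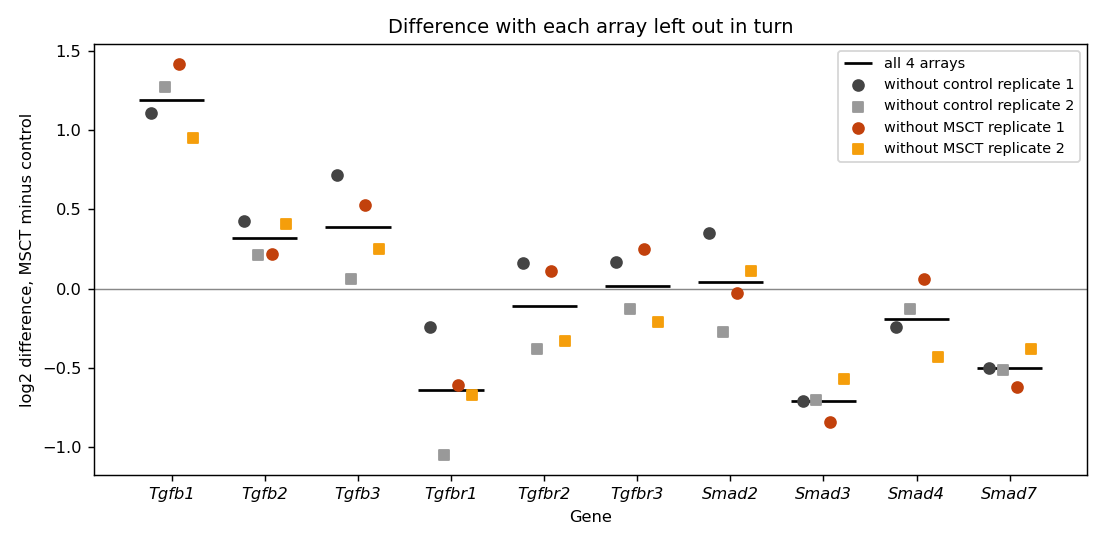
The log2 difference of each gene with all 4 arrays (black lines) and with each array left out in turn (points). Tgfb1 stays between 0.95 and 1.42, Smad3 between -0.84 and -0.57 and Smad7 between -0.62 and -0.38, while Tgfbr2, Tgfbr3, Smad2 and Smad4 change sign.

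Some markers of macrophages were higher in the MSCT group, as Tgfb1 was. In the leukocyte list, 6 of 12 genes were measured, and all 6 were higher in the MSCT group, against 48.0% of all rows. An unadjusted limma p under 0.05 was reached by 3 of them, against 12.0% of all rows. These were Cd68 (log2 difference 1.29, standard error 0.21), the colony-stimulating factor receptor Csf1r (1.00, standard error 0.18) and the lysozyme Lyz2 (0.88, standard error 0.25), genes of macrophages and related myeloid cells. The T cell markers Cd4, Cd3g and Cd8a differed by 0.37, 0.13 and 0.01 and did not pass. The summed intensity of the list was 3408 and 3180 on the control arrays against 6046 and 6952 on the MSCT arrays. Cd68 and Csf1r were the brightest genes of the list and weigh most in this sum. The defining marker Ptprc had no row by name, and the part of these cells in the level of Tgfb1 was not tested.

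The lists of the 4 other cell types of the colon held 1 gene with an unadjusted limma p under 0.05 or none. This was 33.3% of the measured endothelial genes, 14.3% of the fibroblast, 11.1% of the epithelial and 0.00% of the smooth muscle genes, against 12.0% of all rows. The fibroblast list (7 of 10 genes measured) had 6 genes higher, against 48.0% of all rows, and 1 past an unadjusted limma p of 0.05, the collagen gene Col1a2. Its genes Col1a2, Col3a1, Pdgfrb and Fap differed by 0.62, 0.78, 0.86 and 0.89, but Dcn, Lum and Thy1 by 0.01, 0.03 and -0.22. The summed intensity of the fibroblast list was 45897 and 31345 on the control arrays against 47517 and 51164 on the MSCT arrays. Control replicate 2 was the low array of this list, and of the endothelial list (3 of 6 genes, summed intensity 1521 and 1054 against 1478 and 1820), in which Eng passed and Pecam1 did not. The smooth muscle list (5 of 10 genes) had 0 genes past an unadjusted p of 0.05 and summed intensities of 171485 and 141287 on the control arrays against 159204 and 154976 on the MSCT arrays. In the epithelial list (9 of 12 genes), 8 genes were higher, against 48.0% of all rows. The fatty acid binding protein gene Fabp2 passed, and the summed intensities were 134735 and 132336 against 153273 and 145506. Fabp2 differed by 3.38 (standard error 0.86), but its control arrays lay far apart, at 94.4 and 520 against 2761 and 1929. The other measured genes of this list differed by only -0.05 (Krt19) to 0.48 (Cdx2). Col1a1 and Myh11, the defining markers of fibroblasts and smooth muscle, had no row by name. Cd44 and Icam1 (CD54), which the study used to identify its cultured MSCs and which host cells also express, were both higher with an unadjusted limma p under 0.05, by 0.99 (standard error 0.36) and 0.90 (standard error 0.19), and their summed intensity was 730 and 1010 against 1839 and 1497. The part of these cell types in the levels of Smad3 and Smad7 was not tested.

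**Figure D4:**
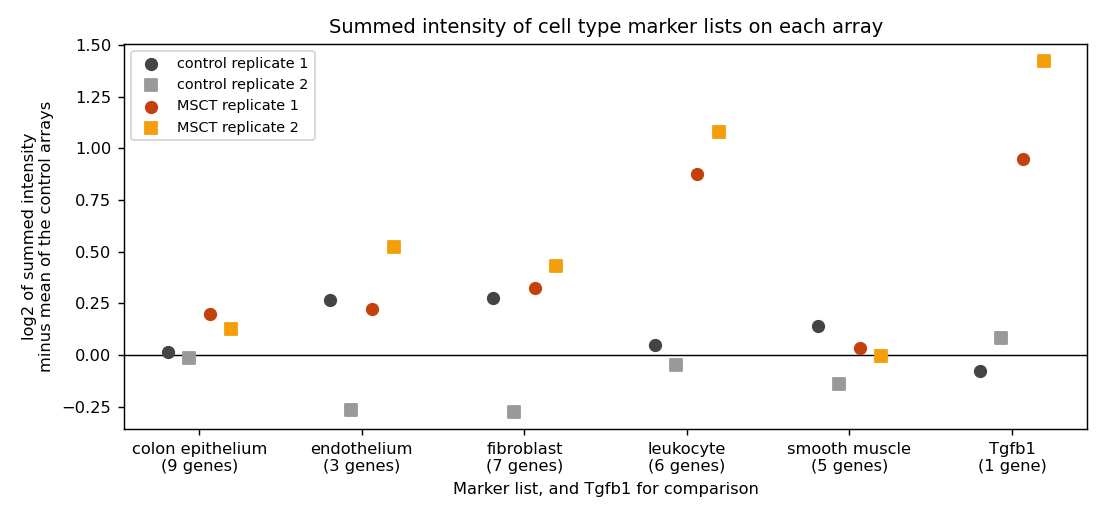
The log2 of the summed intensity of each cell type marker list on each array, minus the mean of the 2 control arrays, with Tgfb1 at the right for comparison. Both MSCT arrays lie above both control arrays for the epithelial, fibroblast and leukocyte lists and for Tgfb1, while the endothelial and smooth muscle lists overlap between the groups. A sum weighs the brightest genes most, which were Col1a2 and Col3a1 for fibroblasts and Cd68 and Csf1r for leukocytes.

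The other genes of the pathway were described from 6 lists, of which 70 of 120 genes were measured. Of these 70, 46 were higher and 24 lower in the MSCT group, while 48.0% of all rows were higher. Their median log2 difference was 0.16 against -0.02 over all rows. An unadjusted limma p under 0.05 was reached by 16 genes that were higher and 3 that were lower, 27.1% of the 70 against 12.0% of all rows. The screen with limma's p let 4 of them through, against 4.63% of all rows. After adjustment over all rows by limma, 0 of the 70 were left (smallest adjusted p 0.298). The count of 19 rests on all arrays. Without control replicate 1 it was 12 (17.1% of the 70 against 9.6% of all rows), without control replicate 2 it was 10 (14.3% against 14.6%), without MSCT replicate 1 it was 7 (10.0% against 7.24%) and without MSCT replicate 2 it was 5 (7.14% against 10%). By the methods' t-test it was 8 (11.4% against 9.66%). The larger share among the pathway genes was therefore absent in the fits without control replicate 2 and without MSCT replicate 2. The split of higher and lower genes was 17 and 1 with equal array medians (25.7% of the 70), against 1010 and 1171 of all rows (11.9%). Without the dimmest 50% of rows it was 10 and 5 (29.4% of the 51 left), against 843 and 891 of the 9175 rows left (18.9%). By the methods' t-test it was 5 and 3, against 807 and 965 of all rows.

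Genes that hold or release latent TGF-beta were mostly higher, 7 of 9 measured against 48.0% of all rows, with a median log2 difference of 0.47. An unadjusted limma p under 0.05 was reached by 4 of the 9, against 12.0% of all rows. These 4 were the metalloproteinase Mmp2 (1.08, standard error 0.31), Nrros (1.07, standard error 0.26), the latent TGF-beta binding protein Ltbp2 (0.80, standard error 0.29) and thrombospondin 1, Thbs1 (0.55, standard error 0.18). Nrros anchors latent TGF-beta1 on macrophages and microglia, and was measured at 540 and 404 on the control arrays against 1117 and 865 on the MSCT arrays, without overlap. Thbs1, an activator of the latent form, had close replicates at 4298 and 4385 against 6577 and 6105. Itgb6, the epithelial integrin subunit that activates TGF-beta, had equally close replicates at 1462 and 1451 against 2068 and 1978, but its difference of 0.47 (standard error 0.18) had an unadjusted limma p of 0.0535. Furin, the protease that cleaves the ligand precursor, differed by -0.50 (standard error 0.26) and did not pass.

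The list of other ligands and ligand-binding proteins had 8 measured genes, 6 of them higher against 48.0% of all rows, and its median was 0.73. An unadjusted limma p under 0.05 was reached by 3 of the 8, against 12.0% of all rows. These were the matrix proteoglycan biglycan (Bgn, 0.93, standard error 0.26) and the activin antagonists Fst (0.94, standard error 0.30) and Fstl3 (0.91, standard error 0.25). Decorin (Dcn), a related proteoglycan that binds TGF-beta, differed by 0.01. Inha, the inhibin alpha subunit, had the lowest difference of the list, -1.08 (standard error 0.53), which rested on MSCT replicate 1 at an intensity of 131 and did not pass.

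In the list of accessory and related receptors, 3 of 8 measured genes were higher, against 48.0% of all rows, and the median was -0.08. An unadjusted limma p under 0.05 was reached by 12.5% of the measured genes and by 12.0% of all rows. Endoglin (Eng), the TGF-beta coreceptor of endothelium, was the 1 gene past an unadjusted p of 0.05 by limma (0.85, standard error 0.19), with intensities of 217 and 208 on the control arrays against 366 and 401 on the MSCT arrays. The activin type I receptors Acvr1b and Acvr1c, which also act through Smad2 and Smad3, were lower on both MSCT arrays than on both control arrays, as Tgfbr1 was, by -0.40 (standard error 0.19) and -0.80 (standard error 0.35), and neither passed. Of the other Smads and Smad regulators, 11 of 22 genes were measured and their differences ran from -0.23 to 0.44. Of these, 0 had an unadjusted limma p under 0.05, against 12.0% of all rows. Smad1 and Smad5, which serve bone morphogenetic proteins, differed by 0.13 and 0.08, and the brightest genes of the list, the phosphatase subunit Ppp1ca and the ubiquitin ligase Stub1, by 0.23 and -0.07.

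The list of partners and Smad-independent kinases went both ways. By an unadjusted limma p under 0.05, 1 gene was higher and 2 were lower, against 4.80% and 7.17% of all rows. The AP-1 genes Jun and Fos, which cooperate with Smad3 on target promoters, were lower by limma's unadjusted p, Jun at -0.83 (standard error 0.18) and Fos at -0.52 (standard error 0.19). The replicates of Jun were close, with intensities of 4416 and 4154 on the control arrays against 2414 and 2399 on the MSCT arrays. Runx3, a transcription factor of T cells and epithelium that works with Smads, was higher by 0.94 (standard error 0.28). The other 6 of the 9 measured genes did not pass, with Sp1 at -0.12 and the kinase gene Mapk14 at -0.16.

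Of 42 target genes of TGF-beta, 26 were measured, 19 were higher (48.0% of all rows) and 7 lower, and the median was 0.29. An unadjusted limma p under 0.05 was reached by 8 higher genes (4.80% of all rows) and 1 lower gene (7.17%), with Ltbp2 counted here as well. Angptl4, a secreted regulator of lipid use, differed by 1.33 (standard error 0.37) and lay among the dimmest rows, at 60.3 and 104 against 166 and 239. The matrix and mesenchymal genes Ccn2 (connective tissue growth factor, 0.83, standard error 0.29), Col1a2 (0.62, standard error 0.22), Vim (0.68, standard error 0.20) and Snai1 (0.74, standard error 0.26) and the inhibitor of differentiation Id2 (0.54, standard error 0.18) also passed.

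The target that was lower was Cdkn2b, which encodes a cell cycle inhibitor that TGF-beta induces in epithelium (-0.56, standard error 0.20), with intensities of 5540 and 4597 on the control arrays against 3404 and 3454 on the MSCT arrays. Cdkn1a, another such inhibitor, differed by -0.34 (standard error 0.20) and did not pass. The contractile targets Acta2 and Tagln, which colon muscle also expresses at a high level, differed by -0.04 and 0.02, and the adhesion gene Cdh1 by -0.03. Col3a1 differed by 0.78, but its control arrays lay at 8711 and 5098 and its unadjusted limma p was 0.0631. The 9 rows of Tpm1 differed by between -0.40 and 0.17, and none of them passed.

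**Figure D5:**
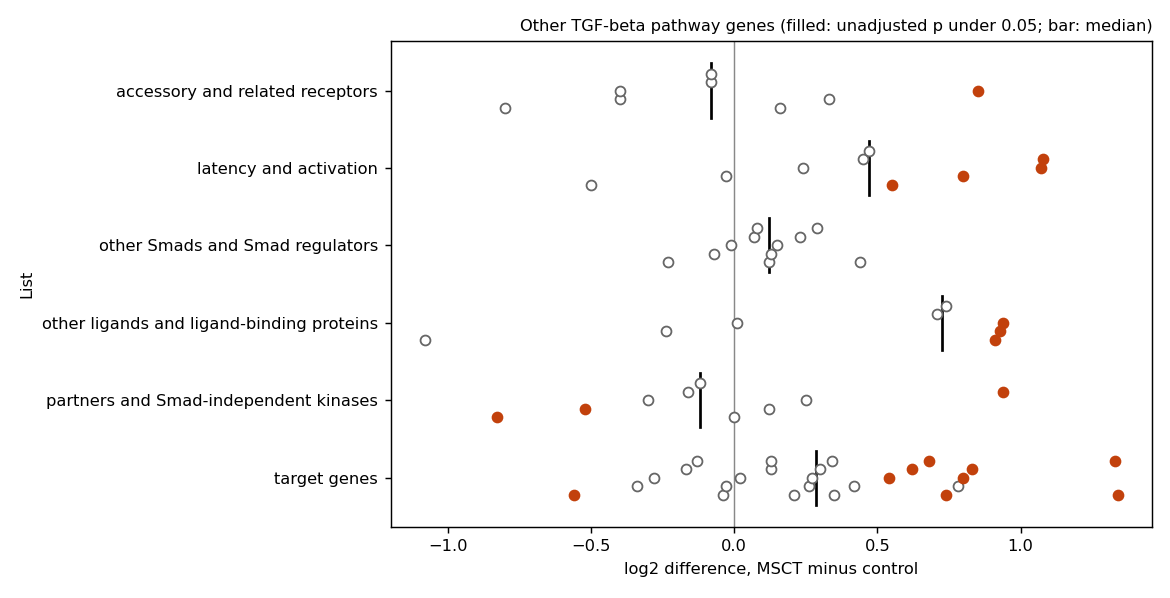
The log2 difference between the MSCT and control means of each measured gene in 6 lists of the TGF-beta pathway (circles, filled where the unadjusted limma p was under 0.05), with the median of each list (black bars). The medians of the latency and activation list (0.47) and of the other ligands and ligand-binding proteins (0.73) lie to the right of 0, and the filled circles to the left are Jun, Fos and Cdkn2b.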

How the data were processed

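RNA from rat colon tissue was measured on 4 one-color NimbleGen arrays. Per the study's methods, scanning was done on a GenePix instrument and extraction in NimbleScan, and the values deposited are 1 linear intensity for each RefSeq transcript on each array. The submitters' processing notes list RMA without its role, and the scaling between arrays and the rule for blank rows are not given in the sources used here. The table has 26420 rows, of which 18350 were measured on every array and 8070 are blank throughout. A gene without a measured row is not shown to be low. The study's text does not say how many rats went onto the chips, and replicates were taken to be separate rats.

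Symbols came from RefSeq's gene table for GRCr8, matched by accession without version (38.5% of measured rows), with the row of the highest mean used for a gene with several. Log2 intensities were compared with lmFit and eBayes of limma 3.58.1 (R 4.3.3) and Benjamini-Hochberg adjustment over all 18350 rows. Figures were drawn with Python 3.11.15, pandas 2.3.3 and matplotlib 3.10.9. Named are all members and, in each list, genes with an unadjusted p under 0.05, up to 5 in each direction. Other genes named were chosen after their values were seen, as were the 3 promoters, the motifs and the pairs of genes compared. One target gene is counted but not reported here. The members and lists were chosen with earlier results of these data known. The test was tested on simulated data for this comparison (10 simulations on 18350 rows, 200 of them changed): an unadjusted p under 0.05 was reached by 88.1% of rows changed by 1 on the log2 scale, 99.7% of rows changed by 2 and 4.9% of unchanged rows. The simulated errors were normal and independent between rows and arrays, with the variances that limma had steadied. These shares therefore hold under limma's own assumptions and do not measure its errors on the real arrays. The methods' t-test (one-way analysis of variance of 2 groups), each array left out, a replicate block and array weights were alternatives. That t-test follows the study's general statistics, since the study names no test for its chips. Other alternatives were an intensity-dependent variance with limma's robust option, quantile normalization and scaling to equal medians. Filters that removed the dimmest 25% or 50% of rows, the mean of a gene's rows, linear means and a fold limit of 1.5 were also used.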

Additional observations from a re-analysis of the deposited data

How the results depend on the processing

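Tgfb1 kept its direction and an unadjusted p under 0.05 in 13 refits, of which the 4 that left out an array tested a lone array against a pair, with differences from 0.95 to 1.42 and adjusted p-values from 0.0395 to 0.633 by limma or the methods' t-test. Without the dimmest 50% of rows, where 7 members and 9175 rows were left and 247 rows passed an adjusted p of 0.05 and 18.9% an unadjusted one, 1 member passed an adjusted p of 0.05 (Tgfb1, 0.0395), 4 had an unadjusted p under 0.05 (Tgfb1, Smad3, Smad7 and Tgfbr1) and 3 were higher. That filter used the mean of all 4 arrays, on which Tgfb1 lay at percentile 50.7. Its control intensities (560 and 627) were under the control array medians (883 and 893). Tgfb1 thus stayed in through its MSCT arrays, the group where it was high, so this adjusted p adds no support for its difference. With an intensity-dependent, robust variance, 4 members also had an unadjusted limma p under 0.05, against 14.7% of all rows. In that fit 387 rows but 0 members passed after adjustment. A fold limit of 1.5 in the main fit let 2 members pass the screen. With single arrays left out, the number of members with an unadjusted p under 0.05 was 1 to 2, that past the screen 0 to 2 and that higher 3 to 6. The number of pathway genes with an unadjusted p under 0.05 was 8 by the methods' t-test, and with single arrays left out 5 to 12. Tgfbr2 ranged from -0.38 to 0.16, Tgfbr3 from -0.21 to 0.25, Smad2 from -0.27 to 0.35 and Smad4 from -0.43 to 0.06 when single arrays were left out, which changed the sign of each. The cause of these changes was not tested, beyond the smaller number of rows or arrays in those fits. Of 137 values of single members under the alternatives, 120 were counted as the same. For refits with a p this meant the same direction and side of the threshold. For linear means, which have no p, it meant a change smaller than the SD within groups, without a change of sign.

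The labels number the replicates without saying whether same-numbered arrays share a pairing or a batch, and the main fit left these numbers out. The deviations of same-numbered arrays from their group means correlated at 0.234 across rows. With the replicate block, 2 members again had an unadjusted limma p under 0.05, Tgfb1 at 1.19 and Smad3 at -0.71, against 14.6% of all rows. By the same p, 13 pathway genes were higher and 2 lower, 21.4% of the 70. Over all rows, 1094 were higher and 1592 lower in that fit. The spread between replicates was larger in dim rows, with a median SD of 0.47 in the dimmest 25%.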
